A study of Mus musculus with 2 samples.

Results

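The blood group and red cell surface genes are 9 genes given by symbol, Gypc, Rhag, Rhd, Kel, Xk, Aqp1, Ermap, Icam4 and Cd47, among the 43346 mouse genes of the tables, and all 9 were matched. They have 25 annotated transcripts in the tables. Their levels were read in 2 libraries of polyadenylated RNA from G1E-ER4 cells, labelled biological replicates 1 and 2 of 1 group. G1E-ER4 is an immortalised male mouse erythroid progenitor line with a disrupted Gata1 gene, in which an introduced GATA1 joined to the ligand-binding part of the estrogen receptor is switched on by estradiol. All cells had 10 nM 17beta-estradiol for 3 h, and no untreated cells were analysed here, so every value is a level early after induction and not a response. Both replicates carry the same cell sample record, so their spread may be technical.

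Blood group antigens are carried by proteins and sugars of the red cell surface. The proteins sit in large complexes that tie the membrane to the spectrin skeleton, move gases, ions and water, or signal to other cells. RhAG forms a gas and ammonium channel with the Rh protein, and ICAM-4 and CD47 associate with it. Kell, an enzyme that cleaves endothelin-3, is bonded to the lipid scramblase XK. Glycophorin C anchors the membrane to protein 4.1R and the scaffold protein MPP1. AQP1 is the water channel of the red cell, and ERMAP is a member of the butyrophilin family that carries the Scianna antigens. Much of this surface is known to appear late in red cell formation.

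In these cells 8 of the 9 genes were expressed at low to moderate levels, and the water channel gene Aqp1 was all but absent. TPM, the unit of level used here, divides the counts of a transcript by its length and sets every library to one sum. In both libraries 8 of 9 members reached 1 TPM, against 20.2% of all 43346 genes and 38.6% of 21474 protein-coding genes. The median of all 9 members, Aqp1 included, was 9.26 TPM in replicate 1 and 16.25 TPM in replicate 2. The medians of the 8777 genes that reached 1 TPM in both were 20.33 and 19.07 TPM. That set excludes genes as low as Aqp1, so the medians are not of like sets. By mean level the order was Cd47 at 45.26 TPM ± 30.7 (SD, n = 2), Ermap at 32.93 TPM ± 33.5, Icam4 at 31.3 TPM ± 35.3, Gypc at 29.38 TPM ± 11.6, Xk at 16.6 TPM ± 0.516, Rhag at 15.23 TPM ± 8.08, Rhd at 3.42 TPM ± 0.820, Kel at 1.83 TPM ± 0.00707 and Aqp1 at 0.01 TPM ± 0.0141. The ranges of the 2 libraries overlapped between neighbours from Cd47 down to Gypc and between Xk and Rhag. They did not overlap between Gypc and Xk, Rhag and Rhd, Rhd and Kel, or Kel and Aqp1. The upper places changed with the library: Cd47, Gypc and Rhag led in replicate 1, and Ermap, Icam4 and Cd47 led in replicate 2.

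**Figure D1:**
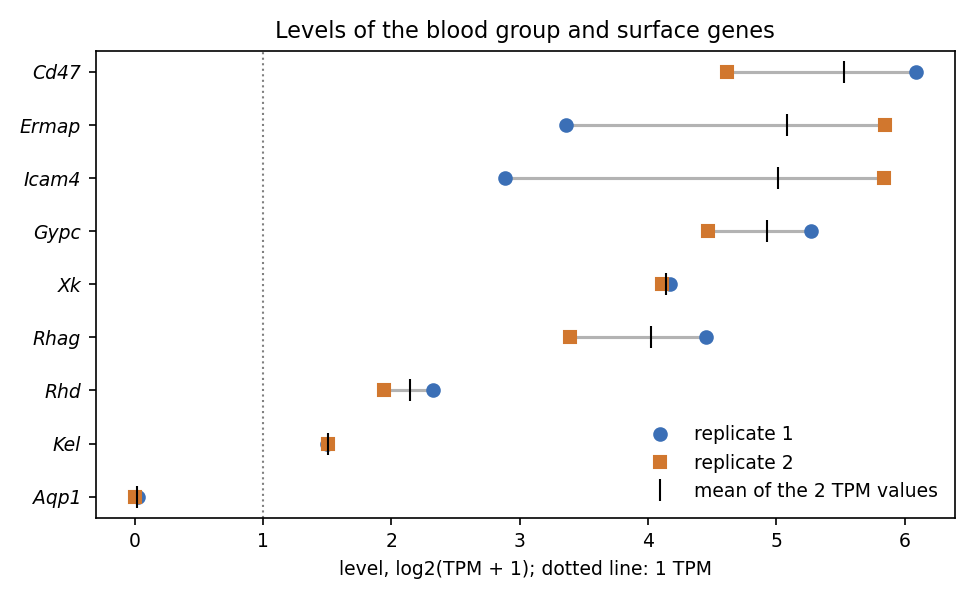
Level of each gene as log2(TPM + 1), with a circle for replicate 1, a square for replicate 2 and a tick for the mean of both TPM values. The points of Xk, Kel and Aqp1 nearly coincide, those of Icam4 and Ermap lie far apart with replicate 2 higher, and Cd47, Gypc and Rhag are higher in replicate 1.

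The libraries held 31126957 and 57853617 expected counts (estimated fragments per gene, which need not be whole) and differ widely as a whole. An exact binomial test on counts scaled by TMM factors (edgeR's correction for library composition) says only how far the reads of one library differ from those of the other. At a Benjamini-Hochberg adjusted p of 0.05 it called 8584 of 10635 genes (80.7%), 43.3% in favour of replicate 2 and 37.4% in favour of replicate 1, and 26.5% were both called and apart by 2-fold or more. Of the 13 erythroid markers analysed here, all reached 1 TPM in both libraries, and 12 were called, 9 higher in replicate 2 and 3 higher in replicate 1, with summed levels of 4017 and 20534 TPM. The globins Hbb-bs, Hba-a1 and Hba-a2 made up most of the second sum. The median level over the markers was 119.6 and 87.2 TPM, but it fell on a different gene in each library. Gene by gene, the median log2 ratio of scaled counts, replicate 2 over replicate 1, was 1.34 for the markers and 0.06 for all genes tested. Gata1 reads, which may come from the introduced copy, gave 190.3 TPM in the first library and 799 TPM in the second. Hbb-bs, adult beta globin, stood at 863 and 9484 TPM, and Klf1, an erythroid activator, at 786 and 350.5 TPM. Their part in the differences below was not tested. In bulk RNA, fewer cells of a type and less RNA per cell cannot be told apart. Among 8 endothelial markers only Egfl7 reached 1 TPM in both (166.7 and 140.2 TPM), with no count on Pecam1, Cdh5, Tie1, Emcn or Vwf. None reached it of 8 macrophage and granulocyte markers, the highest being Cd68 at a mean of 0.84 TPM, nor of 6 lymphocyte markers, the highest being Cd79a at a mean of 0.465 TPM. Of 7 megakaryocyte markers Gp1ba (17.4 and 68.5 TPM) and Itga2b (11.57 and 13.61 TPM) reached it, and the summed level of the 7 was 30.08 and 83.21 TPM. Of 6 mast cell markers Hdc (3.56 and 6.31 TPM) reached it.

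Of the 9 members, 8 had enough counts for this test, and 6 of these 8 lay beyond counting noise, 3 higher in each library. Among the 8, 3 were called and apart by 2-fold or more, beside 26.5% of all genes tested. These were Icam4 and Ermap, both higher in replicate 2, and Cd47, higher in replicate 1. The share called is near that of all genes (80.7%). Nothing particular to the members is read from it or from the 2-fold count. The median log2 ratio of replicate 2 over replicate 1 was 0.13 over the 8 members and 0.06 over all genes tested.

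**Figure D2:**
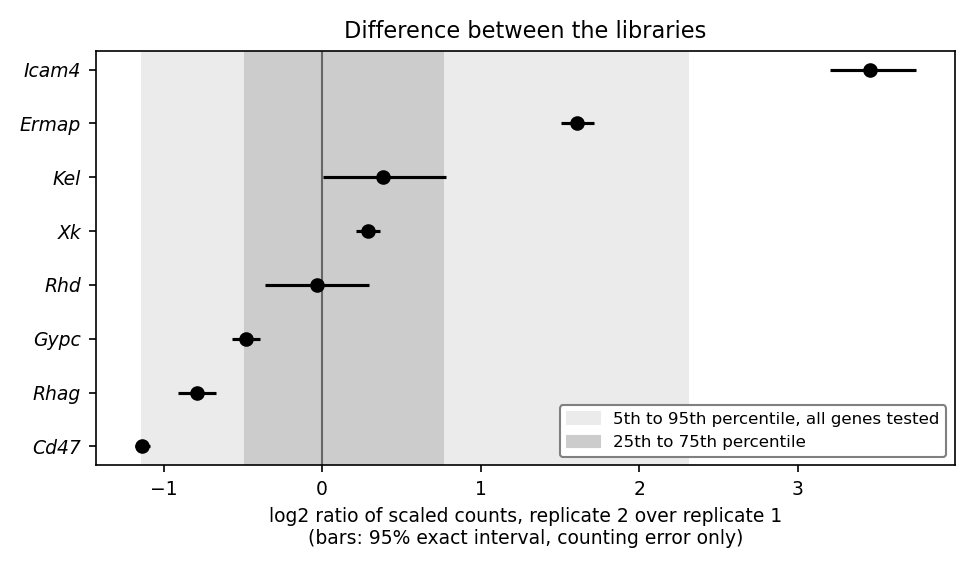
Log2 ratio of scaled counts, replicate 2 over replicate 1, for the 8 genes tested, with 95% exact intervals that cover counting error only, over shaded bands for the ratios of all genes tested. Icam4 lies above the band from the 5th to the 95th percentile, Ermap lies high within it, and Cd47 lies at its lower edge.

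Within the Rh group the channel gene Rhag, the Rh antigen gene Rhd, the adhesion gene Icam4 and the gene of the CD47 receptor did not keep to one ratio. Rhag (chromosome 17, 40811126 to 40840754, plus strand) held 1144 counts or 20.94 TPM in replicate 1 and 1091 counts or 9.52 TPM in replicate 2. It was 1.73-fold higher in replicate 1 in scaled counts (95% exact interval 1.59 to 1.88, adjusted p = 1.54e-37 by the exact binomial test). Rhd (chromosome 4, 134864536 to 134896172, plus strand), the only Rh antigen gene of the mouse, held 126 and 203 counts, or 4 and 2.84 TPM. In scaled counts its ratio of replicate 2 over replicate 1 was 0.977 (interval 0.778 to 1.23, adjusted p = 0.883, exact binomial test), so a difference was not detectable at this depth. Rhag exceeded Rhd in both libraries, by a log2 TPM ratio of 2.13 in replicate 1 and 1.45 in replicate 2 (mean 1.79 ± 0.48, SD, n = 2, with 1 TPM added to each value).

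Icam4 (chromosome 9, 21029373 to 21030595, plus strand), the gene of the LW antigen that binds integrins, showed the widest gap of the 9. It held 122 counts or 6.38 TPM in replicate 1 and 2226 counts or 56.2 TPM in replicate 2. The scaled counts differed 10.9-fold (95% exact interval 9.22 to 13.4, adjusted p = 2.52e-302, exact binomial test), at the 98.6th percentile of the ratios of all genes tested. Its neighbours in the ICAM cluster did not share that difference: Icam1 held 63 and 44 counts and Icam5 held 171 and 191. Icam1 and Icam5 were each called, with log2 ratios of -1.19 and -0.56, against 3.45 for Icam4. The annotation also places the antisense gene Gm47079 across Icam4. It was not analysed here, and since no source used here states that the counting used strand, reads of these overlapping genes cannot be told apart.

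Cd47 (chromosome 16, 49800533 to 49915010, plus strand) encodes a receptor that tells macrophages not to engulf the cell and is found on most cell types. It was the highest member in replicate 1, with 8329 counts or 66.98 TPM, and the third in replicate 2, with 6261 counts or 23.54 TPM. Scaled counts were 2.19-fold higher in replicate 1 (95% exact interval 2.12 to 2.27). The log2 TPM ratio of Rhag over Cd47 was -1.63 in replicate 1 and -1.22 in replicate 2, so Cd47 was the higher in both. The ratio of Rhag over Icam4 changed sign, from 1.57 in replicate 1 to -2.44 in replicate 2. Sirpa, the macrophage receptor that CD47 binds, and Thbs1, a secreted ligand, had no count in either library. At 95% confidence such a result leaves room for up to about 3 counts (9.64e-06% of the counts of replicate 1, 5.19e-06% of those of replicate 2).

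Kel and Xk, whose products are joined in a complex, stood at the most even TPM of the expressed members, and far apart from each other. In scaled counts Rhd was the most even. Xk (chromosome X, 9272756 to 9313250, plus strand) held 2081 counts or 16.98 TPM in replicate 1 and 4194 counts or 16.25 TPM in replicate 2. Kel (chromosome 6, 41686330 to 41704339, minus strand) held 83 counts or 1.83 TPM and 179 counts or 1.84 TPM. The log2 TPM ratio of Kel over Xk was -2.67 in replicate 1 and -2.60 in replicate 2 (mean -2.64 ± 0.05, SD, n = 2). Xk was called 1.22-fold higher in replicate 2 in scaled counts (95% exact interval 1.16 to 1.29, adjusted p = 9.28e-14, exact binomial test), although its TPM was slightly lower there, so its direction rests on the unit. Kel was 1.30-fold higher in scaled counts (interval 1.00 to 1.72), with an adjusted p of 0.0591 in the exact binomial test. Edn3, the endothelin cleaved by Kell, had no count, and Vps13a, the lipid transfer protein that XK binds, stood at 0.83 and 0.51 TPM.

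Gypc (chromosome 18, 32528322 to 32560034, minus strand), the glycophorin C gene, held 1903 counts or 37.58 TPM in replicate 1 and 2247 counts or 21.18 TPM in replicate 2. It was 1.40-fold higher in replicate 1 in scaled counts (95% exact interval 1.31 to 1.49, adjusted p = 4.22e-26, exact binomial test). The log2 TPM ratio of Gypc over Rhag was 0.81 in replicate 1 and 1.08 in replicate 2 (mean 0.95 ± 0.19, SD, n = 2), so Gypc was the higher in both. Mpp1, whose product binds glycophorin C and 4.1R, was also higher in replicate 1, at 14.47 and 6.8 TPM, whereas the 4.1R gene Epb41 was higher in replicate 2, at 41.39 and 60.73 TPM.

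Aqp1 (chromosome 6, 55336432 to 55348555, plus strand) had 1 count in replicate 1 and 0 in replicate 2, at 0.02 and 0 TPM. Both values lie under the 3 counts that a count of 0 allows at 95% confidence, and the gene was not tested. Of the other aquaporins in the lists, Aqp3, which carries the GIL antigen, had 2 and 142 counts or 0.05 and 1.68 TPM, and Aqp11, an intracellular aquaporin, reached 7.69 and 11.38 TPM. No ratio of Aqp1 over Aqp3 is given, since Aqp1 lay at that floor.

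Ermap (chromosome 4, 119175457 to 119190011, minus strand) differed between the libraries in level and in the transcripts to which its reads were assigned. The gene held 936 counts or 9.26 TPM in replicate 1 and 4708 counts or 56.6 TPM in replicate 2. In scaled counts it was 3.05-fold higher in replicate 2 (95% exact interval 2.84 to 3.27, adjusted p = 6.54e-265, exact binomial test), and in TPM 6.11-fold. The gap between these values goes with the effective gene length used for TPM, which was 4074 bases in replicate 1 and 1587 in replicate 2. An effective length that differed at least 2-fold was found in 3.87% of the 8777 genes at 1 TPM in both libraries, and in 1 of the 8 members. In the 3 Ermap transcripts over 2000 bases alone, the level was 8.67 TPM and 15.6 TPM in that order, 1.80-fold apart.

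The annotation gives Ermap 9 transcripts. Ermap-206, the full-length coding form of 4551 bases, took 68.29% of the gene's TPM in replicate 1 (6.32 TPM) and 16.5% in replicate 2 (9.34 TPM). Ermap-201, which the annotation classes as a target of nonsense-mediated decay, took 22.16% and 10.5% (2.05 and 5.94 TPM). Ermap-202, a coding model of 724 bases whose 3′ end was not found, had no count in replicate 1 and 31.01 TPM or 54.8% in replicate 2. The authors' intervals for Ermap-202, 6.88e-07 to 0.290 TPM and 26.8 to 33.5 TPM, do not overlap. Of the remaining forms, Ermap-209 took 3.34% and 7.68% and Ermap-207 took 0% and 5.23%. The 3 transcripts without a found end, Ermap-202, Ermap-204 and Ermap-209, together held 4.21% of the gene's TPM in replicate 1 and 66.6% in replicate 2, but 0.506% and 23.3% of its counts. Ermap was the only member whose most abundant transcript differed between the libraries, 1 of the 5 members with several transcripts, beside 26.9% of 6389 such genes.

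**Figure D3:**
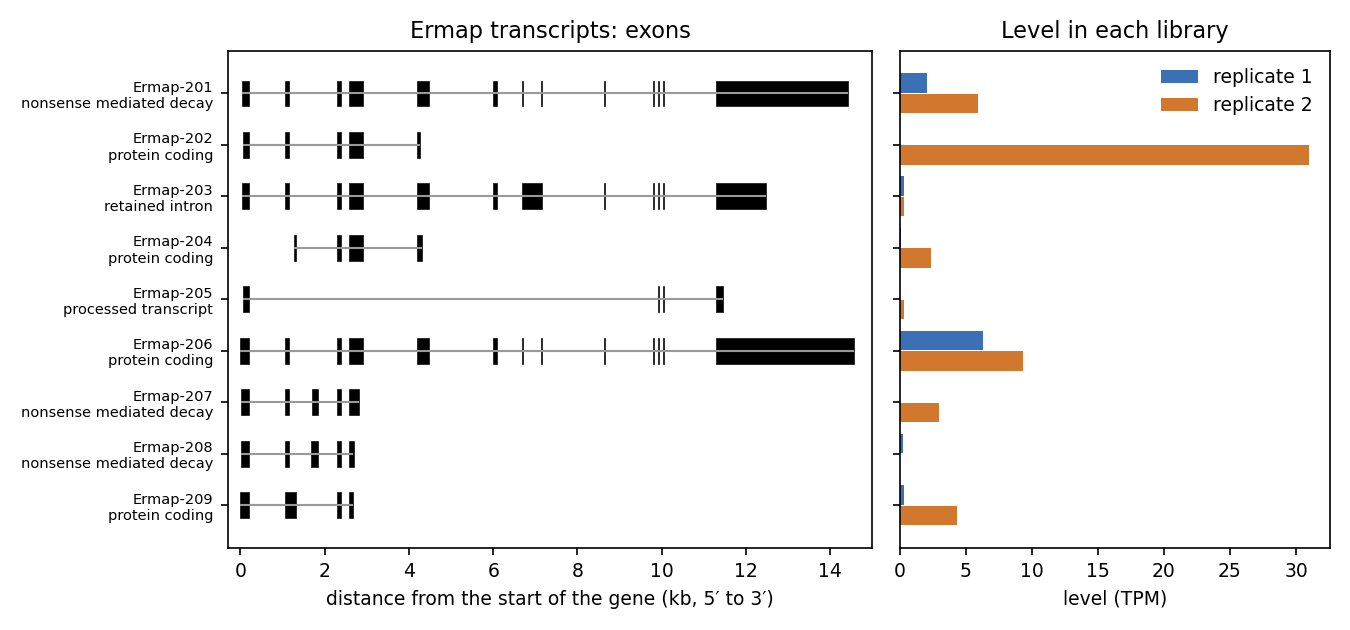
Exons of the 9 Ermap transcripts as distance from the start of the gene in kb (left, boxes), and the level of each in TPM in replicate 1 and replicate 2 (right, bars from 0). The long bar in replicate 2 belongs to Ermap-202, a short model of the 5′ exons, at 31.01 TPM, while Ermap-206 and Ermap-201 carry most of the level in replicate 1.

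At the junctions these forms share, they differ by few bases inside the coding sequence, shown here so that the models can be compared. Ermap-202 also stops within exon 5, at 119185753, while Ermap-206 runs on to exon 13. Which of these features set the assignment of reads was not tested. Every base of Ermap-202 lies in exons of Ermap-206. Ermap-202 begins later in exon 1, at 119189951, against 119190011 for Ermap-206. The first junction at which they part is that of exons 4 and 5: Ermap-206 begins exon 5 at 119185822 and Ermap-202 at 119185816. Capitals mark the 6 bases that Ermap-206 has and Ermap-202 lacks, after the last 15 bases of exon 4, on the minus strand of GRCm38.
Ermap-206 exon 4 to exon 5: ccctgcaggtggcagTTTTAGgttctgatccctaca
Ermap-202 exon 4 to exon 5: ccctgcaggtggcaggttctgatccctaca

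Ermap-206 ends exon 7 at 119183306 and Ermap-201 at 119183310, and capitals mark the 4 bases that Ermap-201 lacks, a number that is no multiple of the codon length.
Ermap-206 exon 7 to exon 8: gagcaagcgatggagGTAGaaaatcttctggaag
Ermap-201 exon 7 to exon 8: gagcaagcgatggagaaaatcttctggaag

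The other members with several transcripts had the same leading transcript in both libraries. Gypc-203 held 97.88% and 96.63% of Gypc, the leading Cd47 transcript held 97.1% and 98.85% of Cd47, and Rhd-201 held 86.73% and 100% of Rhd, the remainder in replicate 1 falling on the retained intron form Rhd-202. Kel-201 held 68.58% and 76.42% of Kel. Kel-204, a model without a found end, took 24.38% in replicate 1 and no count in replicate 2, and the short coding model Kel-205 took 7.04% and 23.58%. At 83 and 179 counts for the whole gene these shares are loosely set: the authors' interval of Kel-205 ran from 0.0237 to 1.08 TPM in replicate 2. Rhag, Xk, Aqp1 and Icam4 had 1 transcript each in the tables. Transcripts now annotated as coding held 100% of TPM in both libraries for Gypc, Rhag, Kel, Xk, Icam4 and Cd47, 86.8% and 100% for Rhd, and 72.5% and 83.1% for Ermap. The medians over 8281 protein-coding genes at 1 TPM in both libraries were 99.8% and 99.5%.

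Words bound by GATA factors were looked for in the promoters of the members, since GATA1 is the factor that estradiol activates in these cells. RefSeq windows (GRCm38.p6, from 250 bases before to 50 after each start) were matched for 8 members in 9 windows, with none for Gypc. Cd47 had overlapping windows, with the 250 bases before the start at chr16:49855404-49855653 and chr16:49855411-49855660. These lie inside the gene as printed above, and Cd47 is counted once for each window. The GATA word searched was AGATAA on either strand, with the variant that ends in G instead, AGATAG, the variant that begins with T instead, TGATAA, and the variant with both changes, TGATAG. At least 1 of these was found in 5 of the 9 windows, those of Ermap, Icam4, Kel, Rhag and Rhd, and in 29.8% of all 32851 windows. The KLF core CACCC was found in 9 of 9 windows and in 57.5% of all windows, and the E boxes CAGCTG or CAGATG in 1 of 9 (Rhd) and in 30.6%. The 6 GATA words lay between 67 and 19 bases before the RefSeq start, which differs from the GENCODE start printed above except for Rhd. Counted from the GENCODE start, the Icam4 word began 16 bases after it, inside the gene, and the second Kel word began 5 bases before it and reached it. They are shown 5′ to 3′ on the strand of each gene, with the word in capitals (TTATCA and TTATCT are TGATAA and AGATAA on the other strand), to print the letters that were counted. A match is a description of letters and not a bound site.
Icam4, chr9:21029377-21029406, 43 bases before the start: cagggtgccttcTTATCTcctgcggccagc
Ermap, chr4:119190045-119190074, 67 bases before the start: tgaacgctcgctTTATCAggggtgggcaga
Rhag, chr17:40811106-40811135, 31 bases before the start: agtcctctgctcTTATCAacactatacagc
Rhd, chr4:134864481-134864510, 43 bases before the start: cccggcagcctgAGATAAgacctttggcgg
Kel, chr6:41704364-41704393, 56 bases before the start: cctgagaaactaAGATAAaagaggaggtga
Kel, chr6:41704327-41704356, 19 bases before the start: gtgttccctcacTGATAAgcaggctccacc

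Of the 5 members with such a word, Icam4 and Ermap were called higher in replicate 2, Rhag was called higher in replicate 1, and Kel, with 2 words, and Rhd were not called. No link between the words and the levels was tested.

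Other genes that carry blood group antigens were read from a list of 36 symbols, of which 34 were analysed here (Darc is an older name of Ackr1). In both libraries 17 of the 34 reached 1 TPM, and 9 had no count. The list was led by Bsg, the basigin gene of the Ok antigen, at 1514 and 924 TPM, Slc29a1, a nucleoside transporter, at 134.2 and 357 TPM, Prnp, the prion protein gene, at 222 and 121 TPM, and Smim1, the gene of the Vel antigen, at 127.4 and 181 TPM. Piezo1, a mechanically gated channel, stood at 40.1 and 37.1 TPM, Ache, acetylcholinesterase of the Yt antigen, at 35.94 and 23.96 TPM, and Abcg2, a transporter of the Junior antigen, at 10.45 and 23.08 TPM. All 4 leading genes exceeded every one of the 9 members in both libraries. Slc4a1, the anion exchanger band 3 of mature red cells, named after its values were seen, stood at 1.2 and 2.68 TPM. The genes without a count were Ackr1, Cd59b and 7 genes of enzymes that build carbohydrate antigens: Abo, Fut1, A4galt, B3galnt1, B4galnt2, Gcnt2 and Gbgt1.

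Of this list 20 genes had enough counts and 19 lay beyond counting noise, 13 higher in replicate 2 and 6 higher in replicate 1, beside 80.7% of all genes. With total counts as the scaling 16 of the 20 did. The median log2 ratio was 0.38 against 0.06 over all genes tested. Cd151, a tetraspanin of the Raph antigen chosen after its values were seen, had 54 counts in replicate 1 and 1079 in replicate 2, a log2 ratio of 3.56.

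**Figure D4:**
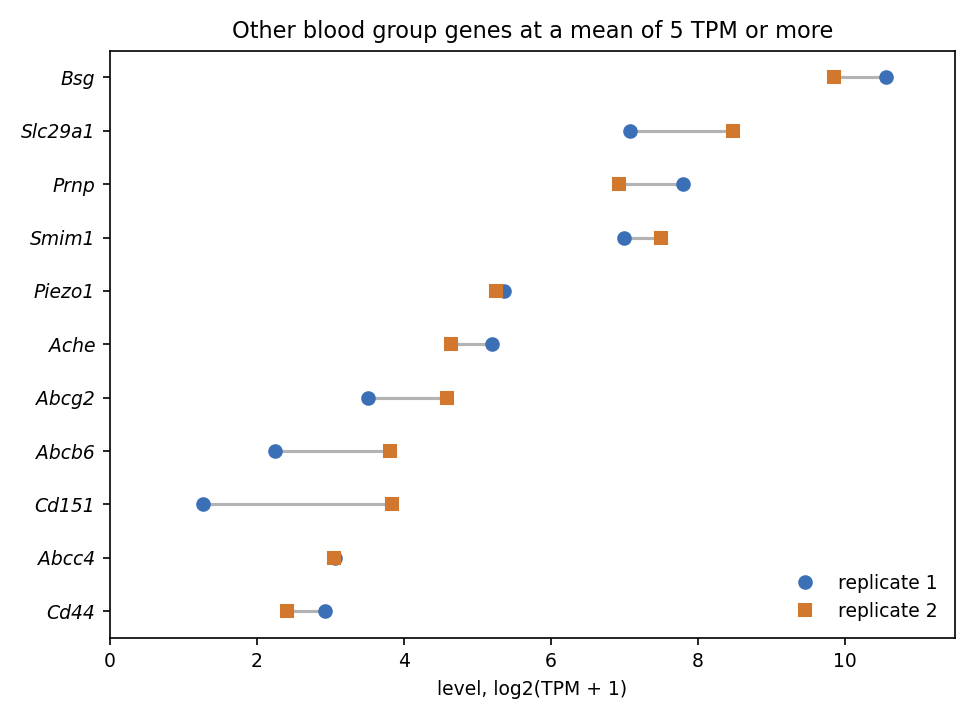
Level as log2(TPM + 1) of the 11 other blood group genes that reached 1 TPM in both libraries and a mean of at least 5 TPM, with a circle for replicate 1 and a square for replicate 2. Bsg is highest in both, and Cd151 and Abcb6 show wide gaps with replicate 2 higher.

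Relatives of the members were mostly low. Of 27 genes of the Rh, M13 peptidase, XK, aquaporin, ICAM and butyrophilin families, 6 reached 1 TPM in both libraries and 9 had no count. Icam2, an adhesion gene, led at 107.6 and 80.2 TPM. Rhcg, a non-erythroid ammonium channel, had 1 count in each library, and Rhbg had none. Of this list 10 of 11 tested genes lay beyond counting noise, 5 in each direction, beside 80.7% of all genes, with a median log2 ratio of 0.69 against 0.06 over all genes tested. These counts are read as no result about the lists.

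Of 10 partners and ligands, 4 reached 1 TPM in both libraries, among them the integrin genes Itgb1 at 141.2 and 98.7 TPM, Itga4 at 36.4 and 41.74 TPM and Itgav at 51.7 and 17.37 TPM, whose products include receptors for ICAM-4. Of 7 tested, 5 were called, beside 80.7% of all genes. Of these 5, 3 were in favour of replicate 2 and 2 in favour of replicate 1, and the median log2 ratio of the 7 was 0.0016. Of 8 membrane anchor genes, 6 reached that level, led by the adducin gene Add1 at 458 and 356 TPM and the ankyrin gene Ank1 at 100.4 and 114 TPM, with Add2 at 33.03 and 65.55 TPM. In scaled counts 6 of the 8 were called higher in replicate 2, beside 43.3% of all genes. Add1 was among them although its TPM was lower there. Only Mpp1 was called higher in replicate 1, beside 37.4% of all genes, and Tmod1 was not called. The median log2 ratio was 0.42, against 0.06 over all genes tested. These counts, too, are read as no result about the lists.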

How the data were processed

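Each library was aligned to mm10 and quantified separately on GENCODE M4, per the notes deposited beside the tables. The aligner and quantifier are not given in the sources used. The deposited expected counts are estimated fragments, not normalised. The TPM and FPKM values, the percent of a gene's TPM on each transcript, posterior mean versions of these and intervals of TPM (the level of which is not stated) are the authors', per the file headers. Rows that name no mouse gene (26345, holding 1 count in replicate 1 and 0 in replicate 2) were left out. Of 43346 genes, 42462 matched a symbol. Positions, transcript names and classes were taken from the GENCODE M21 annotation (GRCm38, equal to mm10), so gene models may differ from those counted.

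Counts of all 9 members were whole (within 0.005). Counts were rounded, scaled by TMM (edgeR 4.0.16) and tested, for genes with a summed count of at least 20, with an exact binomial test, two-sided and conditional on the sum (scipy 1.17.1) with Benjamini-Hochberg adjustment over all genes; folds used a prior count of 2. A quasi-likelihood fit needs replicates on a side, and there is 1 library on each. Intervals and limits cover counting error only. The test was checked on simulated data with counting noise only and few genes changed. That check does not cover libraries that differ as widely as these. Alternatives were DESeq2 1.42.0 size factors, total counts, other filters and posterior means. The 9 members, the lists and the rule for named genes were chosen with earlier results of these data known. Named were all members with their transcripts at 5% or more, genes of each list at 10 TPM or more in both libraries, genes of pairs, and the highest gene of each marker list. Klf1, Gata1, Hba-a1, Hba-a2, Itga2b, Aqp11, Icam1, Icam5, Mpp1 and Vps13a were named after their values were seen. So were Rhcg, Slc4a1, Tmod1, Cd151, Abcb6 and the genes without a count. A planned ratio is not reported here.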

Additional observations from a re-analysis of the deposited data

How the results depend on the processing

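The direction and call of the 8 member ratios between libraries were the same in all 24 comparisons with DESeq2 size factors, total counts or posterior mean counts, and 6 members stayed beyond counting noise with no filter on low counts and with a summed count of at least 100. Members at 1 TPM in both libraries numbered 8, also at 0.5 TPM, and 7 at 2 TPM, where Kel was lost. With posterior means the level of Kel was 2.35 TPM in place of 1.83, its share on coding transcripts was 85.9% in place of 100%, and the log2 ratio of Kel over Xk was -2.36. That ratio was -3.11 with a pseudocount of 0.1 and -2.56 in FPKM. Without division by length (expected counts) the log2 ratios were -4.59 for Kel over Xk, 2.80 for Rhag over Rhd and -2.69 for Rhag over Cd47. The Ermap ratio was 6.11 in TPM, and, in alternatives chosen after seeing the data, 1.80 in transcripts over 2000 bases and 3.05 in scaled counts. Scaling by total counts moved the median log2 ratio of all genes from 0.06 to -0.11. Leaving out a replicate leaves 1 library, without a test, and the values of each are printed above. No paired analysis was possible because there is 1 group. Counts limit Aqp1 most, with 1 and 0, and then Kel, with 83 and 179.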
